A study of Mus musculus with 20 samples.

Results

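The Runx genes Runx1, Runx2 and Runx3 and their partner gene Cbfb were followed across 20 gene expression arrays of C2C12 cells, a mouse myoblast line. Members were the probe sets whose gene symbol in the platform annotation held one of these 4 names, alone or among several. The rule found 3 probe sets, 1 each for Runx1, Runx3 and Cbfb, and each carried that symbol alone, so 3 of the 22180 genes with a probe set of their own are described. In the annotation table used here no probe set carried the symbol Runx2, alone or shared, so there is no sharing symbol to name and the expression of Runx2 was not analysed here.

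RUNX proteins are transcription factors that bind DNA through the runt domain. CBFβ, the product of Cbfb, does not bind DNA itself but joins the runt domain and strengthens its binding. RUNX1 is known above all for its role in blood cell formation and is also expressed in muscle and skeletal progenitors, RUNX2 is required for osteoblast formation, and RUNX3 acts in T cells, sensory neurons and cartilage. BMP ligands signal through SMAD1 and SMAD5, which can form complexes with RUNX proteins, and in C2C12 cells BMPs are known to divert the cells from the muscle to the osteoblast fate.

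Wells were given recombinant BMP4 at 10, 100 or 300 ng/ml (2 arrays per dose), or one of the compounds 942, 178 and 181 at 6.25, 12.5 or 25 µM (1 array per compound and dose). The controls were methanol (3 arrays), taken as the vehicle of the compounds, and untreated wells (2 arrays), taken as the control of BMP4. All cells were unmodified C2C12 in medium with serum, and the sources used here do not give the time from treatment to extraction. The series' title calls its compounds ventromorphins and activators of BMP signalling, and its design sets 3 drugs beside BMP4. The title numbers form 2 runs, of 8 arrays (10 to 17, with compound 942) and 12 arrays (18 to 29, with compounds 178 and 181), and both runs hold untreated, methanol and all BMP4 doses. The 3 arrays of compound 942 and replicate 1 of BMP4 300 ng/ml were labelled by a method called Affyexpress and the other arrays by the standard method. Nothing in the labels states that the arrays of a group are separate cultures, and the p-values therefore reflect only the spread among these samples, part or all of which may be technical.

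Values are log2 signals per probe set. Array medians lay between 4.93 and 5.05, and arrays of the same group correlated at 0.982 to 0.991 over all probe sets. Muscle markers fitted the muscle lineage of the labelled line. Acta1, skeletal muscle actin, stood at 12.03 and 11.97 in untreated cells, and Myog, the muscle regulator myogenin, at 11.17 and 10.94. How far the untreated cells had differentiated was not tested. Ptprc, the pan-leukocyte marker CD45, lay between 3.28 and 3.82 on all 20 arrays. It had the lowest mean of the 10 haematopoietic and macrophage markers listed. Of these, Cd68, Itga2b and Spi1 averaged 5.89, 5.51 and 5.11 over all arrays, above the array medians, and the others averaged below them. A bulk signal cannot tell fewer cells of a type from less RNA per cell.

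The upstream promoters of the 3 Runx genes hold the same stretch with 2 copies of the RUNX core, and these sequences are shown because they tie the family members to each other and to the sites that RUNX proteins read. They come from RefSeq on GRCm38.p6, in windows of 250 bases before to 50 bases from each annotated start, and all 4 genes matched, with 6 windows. Each line gives 30 bases in the direction of transcription, with the shared block of 18 bases in capitals:
Runx1, chr16:92826025-92826054, minus strand: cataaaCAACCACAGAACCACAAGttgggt
Runx2, chr17:44814583-44814612, minus strand: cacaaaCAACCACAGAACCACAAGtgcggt
Runx3, chr4:135120503-135120532, plus strand: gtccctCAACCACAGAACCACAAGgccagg

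The block lies at +27 to +44 from the Runx1 start, at +22 to +39 from the Runx2 start and at -136 to -119 from the upstream Runx3 start. The core searched was ACCACA, or TGTGGT for the other strand, and the pair was ACCACAGAACCACA on either strand, in which both cores lie side by side. The core alone occurred in 5506 of 32851 promoter windows (16.8%), and the pair in 4 windows (0.0122%), which are those of Runx1, Runx2, Runx3 and Gm16225. The Gm16225 window lies on the opposite strand and shares 232 bases with the Runx3 window, so both show the same block. The pair is part of the block printed above, which was read from the windows of Runx1, Runx2 and Runx3. Their hits were therefore fixed in advance. The count shows only that no other window, apart from that of Gm16225, held the pair. The second annotated windows of Runx1 and Runx3 and the single Cbfb window hold no ACCACA on either strand.

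For the genes known as RUNX targets in osteoblasts, 12 of the 16 listed had a promoter in the table. Of their 17 windows 4 held the core (23.5%, against 16.8% of all windows), each in a different gene. Bglap, the osteocalcin gene, and Mmp13, a collagenase gene, are shown because they are the textbook RUNX2 targets, with the core in capitals:
Bglap, chr3:88384581-88384610, minus strand: ccgcaatcacctACCACAgcatcctttggg
Mmp13, chr9:7272384-7272413, plus strand: attctgccacaaACCACActtaggaagaaa

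Their cores begin at -132 and -118 from the start. A match describes the letters and is not evidence of binding.

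Runx1 fell with BMP4, and it was the only one of the 3 measured genes that did so by the test. Untreated cells had log2 signals of 10.39 and 10.46, cells with BMP4 at 10 ng/ml 9.89 and 10.11, at 100 ng/ml 9.66 and 9.53, and at 300 ng/ml 9.71 and 9.67. All 6 BMP4 arrays lay below both untreated arrays and also below the 3 methanol arrays (10.35, 10.39 and 10.34). The share of all probe sets whose 6 BMP4 arrays lay below all 5 controls was 3.03%. Over the 3 doses Runx1 averaged 9.76 ± 0.21 with BMP4 (SD, n = 6) against 10.42 ± 0.05 in untreated cells (SD, n = 2).

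The fitted difference of Runx1, BMP4 mean minus untreated, was -0.67 on the log2 scale (SE 0.087, 95% interval -0.87 to -0.47), a signal 0.629 times that of untreated cells. This passed limma's moderated test with Benjamini-Hochberg adjustment over all 41345 probe sets (adjusted p = 0.00497). In that comparison 1398 probe sets (3.38%) passed in either direction, and 741 (1.79%) were lower. The call was lost without untreated replicate 1 or without untreated replicate 2, where 1 untreated array remains and the difference was -0.70 and -0.63. Against untreated cells the call thus needs both untreated arrays. It held under 28 of 30 alternatives, among them methanol in place of untreated as the control of BMP4, with a difference of -0.605.

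By dose, Runx1 differed from untreated by -0.42 at 10 ng/ml (SE 0.10, adjusted p = 0.250 in limma), by -0.83 at 100 ng/ml (SE 0.10, adjusted p = 0.00461) and by -0.76 at 300 ng/ml (SE 0.13, adjusted p = 0.0177). At these doses, from low to high, 0.0895%, 1.73% and 1.58% of all probe sets were called lower. At 100 ng/ml Runx1 passed under all 29 alternatives run, with adjusted p values up to 0.0366. At 300 ng/ml the fitted mean rests on replicate 2 because of the labelling term, and the adjusted p was 0.0664 when untreated replicate 1 was left out, 0.0689 when replicate 2 was, and 0.0555 with no variance trend, none of which passed. The step from 10 to 100 ng/ml was -0.40 (95% interval -0.64 to -0.17, adjusted p = 0.203, with 0.310% of probe sets called lower) and the difference of 300 minus 100 ng/ml 0.07 (-0.22 to 0.36, adjusted p = 0.99968, with 0 probe sets called and 1685 at an unadjusted p under 0.05), so neither neighbouring pair of doses was separated by the test.

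**Figure D1:**
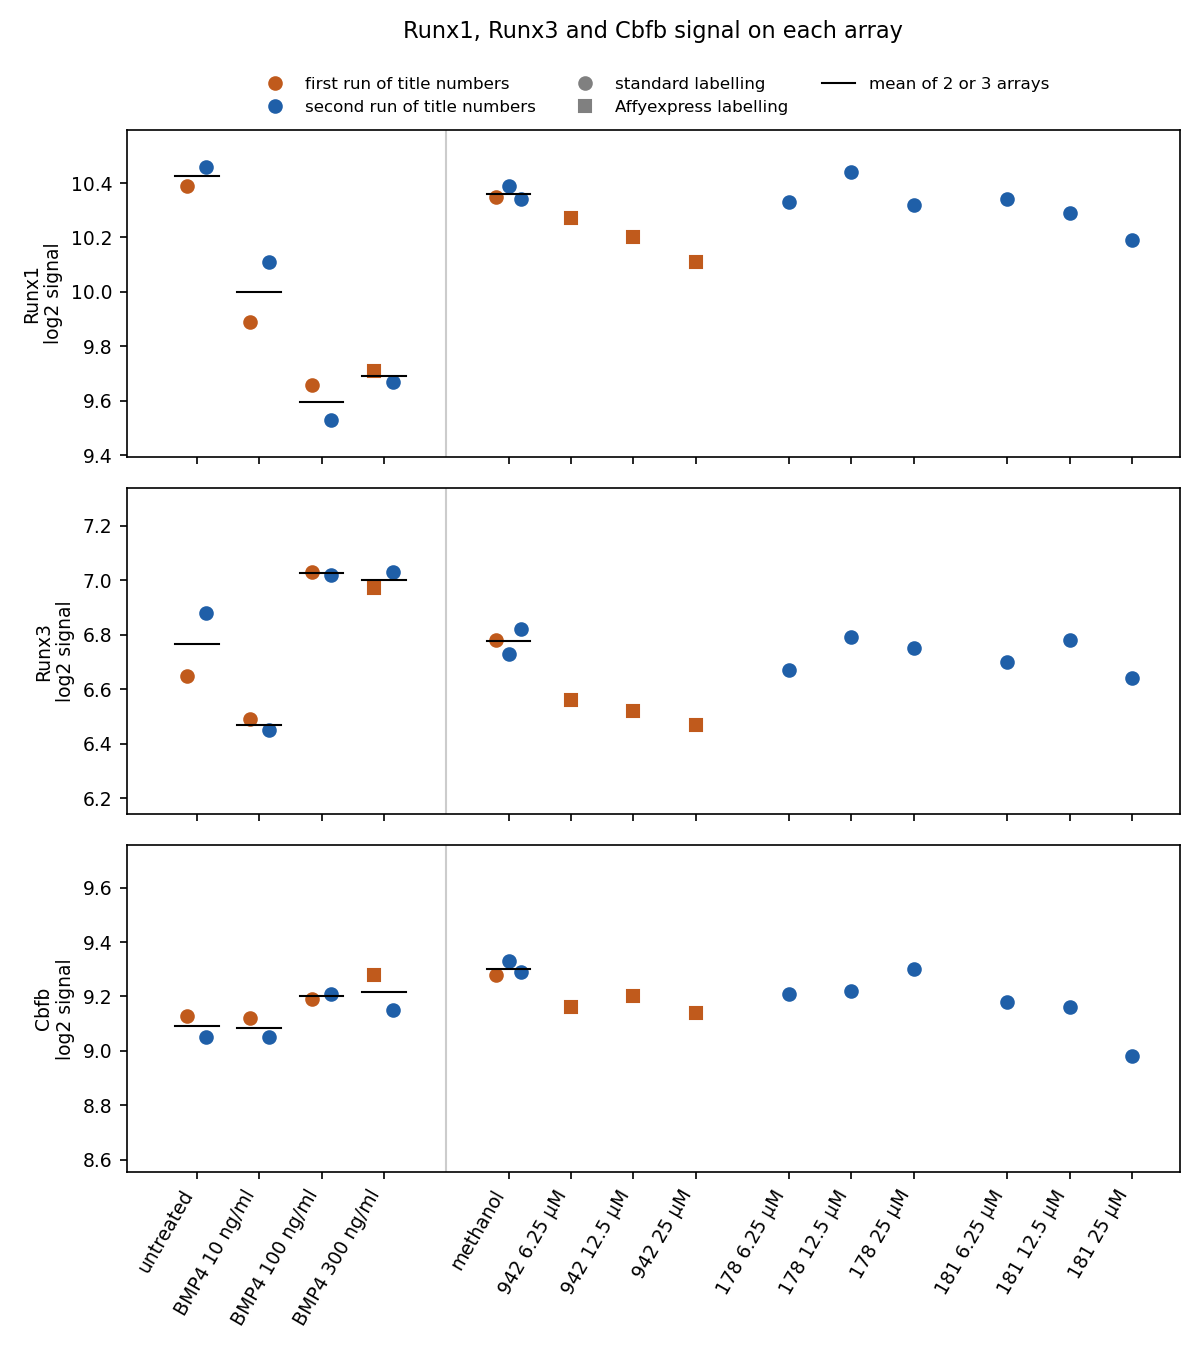
Log2 signal of Runx1, Runx3 and Cbfb on each of the 20 arrays, with the BMP4 series and untreated cells on the left and the compounds and methanol on the right. Each point is 1 array, colours give the run of title numbers, squares the Affyexpress labelling and lines the mean of groups with 2 or 3 arrays; each panel spans the same height, and the 6 BMP4 arrays of Runx1 lie below all 5 control arrays.

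Within each run of title numbers the fall of Runx1 had a like size. BMP4 minus untreated was -0.63 in the first run and -0.69 in the second, each from 3 BMP4 arrays and 1 untreated array, with no test. Against the methanol arrays of the same run it was -0.59 in the first and -0.60 in the second. In the first run the differences at 10, 100 and 300 ng/ml were -0.50, -0.72 and -0.68, and in the second -0.35, -0.93 and -0.79. In both runs 100 ng/ml gave the lowest signal and 10 ng/ml the highest among the BMP4 arrays.

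Runx3 did not pass the test in any comparison, and its arrays at 10 ng/ml lay apart from those at the higher doses. Untreated cells had log2 signals of 6.65 and 6.88, cells with BMP4 at 10 ng/ml 6.49 and 6.45, at 100 ng/ml 7.03 and 7.02, and at 300 ng/ml 6.97 and 7.03. The methanol arrays stood at 6.78, 6.73 and 6.82. Both arrays at 10 ng/ml were thus below all 5 controls, and the 4 arrays at the higher doses were above them. This order, seen after the values were known, was shared by 27 probe sets (0.0653%).

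Over the 3 doses together, the difference of Runx3 from untreated was 0.07 (95% interval -0.17 to 0.32, adjusted p = 0.854 in limma). Against untreated cells Runx3 differed by -0.30 at 10 ng/ml (SE 0.13, adjusted p = 0.659), by 0.26 at 100 ng/ml (SE 0.13, adjusted p = 0.452) and by 0.26 at 300 ng/ml (SE 0.16, adjusted p = 0.585). The step of Runx3 from 10 to 100 ng/ml was 0.55 (SE 0.13, 95% interval 0.26 to 0.85, adjusted p = 0.162), a step for which 48 probe sets (0.116%) were called higher. Its slope was 0.12 per doubling of dose (adjusted p = 0.121), with 0.530% of probe sets called higher. With 1 probe set per gene the step had an adjusted p of 0.0443 and the slope 0.0392, and without the labelling term the slope had 0.0327.

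The Runx3 step was present in both runs. Relative to the untreated array of the run, Runx3 stood at -0.17, 0.38 and 0.31 for 10, 100 and 300 ng/ml in the first run and at -0.43, 0.14 and 0.15 in the second. The mean over doses had opposite signs, 0.17 in the first run and -0.05 in the second. The 2 arrays of each BMP4 dose lay closer together (SD 0.03, 0.01 and 0.04 at 10, 100 and 300 ng/ml) than the untreated arrays (SD 0.16).

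**Figure D2:**
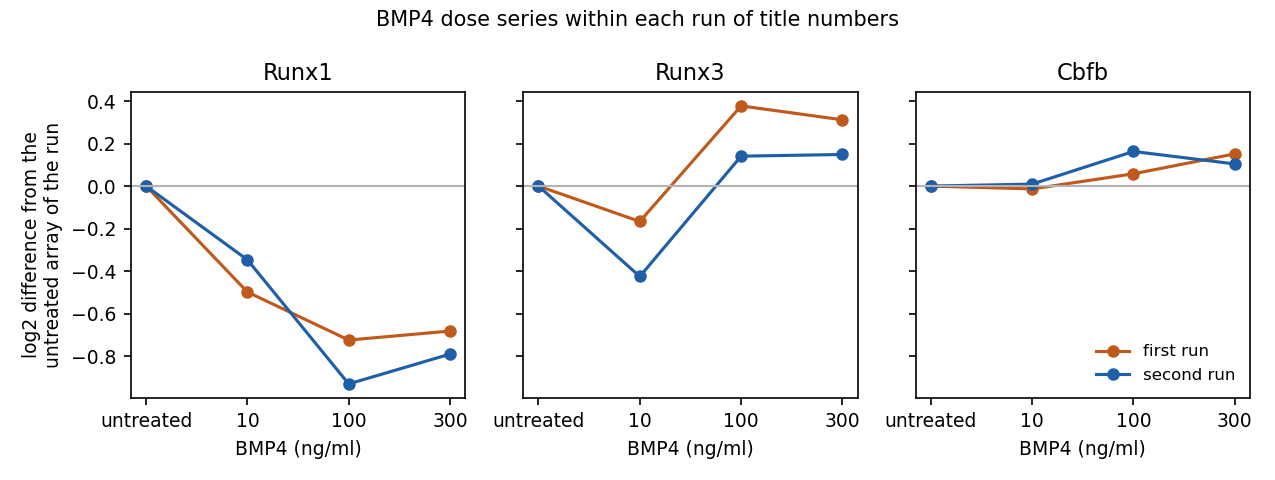
Log2 difference of each BMP4 array from the untreated array of its own run of title numbers, for Runx1, Runx3 and Cbfb at 10, 100 and 300 ng/ml (doses at equal spacing). Runx1 lay below untreated at every dose in both runs, Runx3 was lower at 10 ng/ml and higher at 100 and 300 ng/ml in both, and Cbfb stayed between -0.01 and 0.16.

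Cbfb varied little and did not pass the test in any comparison. Untreated cells had 9.13 and 9.05, cells with BMP4 at 10 ng/ml 9.12 and 9.05, at 100 ng/ml 9.19 and 9.21, and at 300 ng/ml 9.28 and 9.15. BMP4 arrays and untreated arrays overlapped. BMP4 minus untreated was 0.06 (95% interval -0.12 to 0.24, adjusted p = 0.845 in limma), an interval that holds 0. Over all 20 arrays the Cbfb signal spanned 0.34, and 10.2% of the 1000 probe sets nearest in mean signal had a smaller range. By the same measure Runx1, with a span of 0.93, had 80.7% of its neighbours below it, and Runx3, with 0.58, had 27.6%.

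The 3 methanol arrays of Cbfb, at 9.28, 9.33 and 9.29, lay above both untreated arrays. Methanol minus untreated was 0.21 (95% interval 0.02 to 0.40, unadjusted p = 0.0365, adjusted p = 0.99994 in limma). Among all probe sets, 8.53% had 3 methanol arrays above both untreated arrays. With methanol in place of untreated as its control, the difference of Cbfb with BMP4 was -0.15. Its sign thus depends on which control is used, and neither value passed the test.

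The compounds moved none of the 3 genes past the test. No probe set of the table was called for the mean of 942, 178 or 181 minus methanol, or for methanol minus untreated, in limma (unadjusted p under 0.05 in 771, 1278, 1563 and 1403 probe sets). For Runx1, methanol gave 10.35, 10.39 and 10.34. Runx1 had signals of 10.27, 10.20 and 10.11 with compound 942 at 6.25, 12.5 and 25 µM. With compound 178 at the same doses they were 10.33, 10.44 and 10.32, and with compound 181 they were 10.34, 10.29 and 10.19. The signals of compound 942 were lower at each higher dose. Its arrays, all with the Affyexpress label, lay below the 3 methanol arrays, which carry the standard label. The share of all probe sets with that order was not counted. The 178 arrays lay on both sides of the methanol arrays, and those of 181 were level with the lowest methanol array or below it.

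Compound mean minus methanol for Runx1 was -0.21 for 942 (95% interval -0.59 to 0.18), 0.01 for 178 (-0.18 to 0.20) and -0.08 for 181 (-0.28 to 0.11), with adjusted p values of 0.9999, 0.9999 and 0.99973. The interval of 942 is the widest because all of its arrays carry the Affyexpress label. In the run of compound 942 its difference from the methanol array was -0.15. At 25 µM the differences of Runx1 were -0.29 for 942, -0.04 for 178 and -0.16 for 181.

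For Runx3 the 942 arrays, all with the Affyexpress label, read 6.56, 6.52 and 6.47. They lay below all 5 controls, which carry the standard label, and the share of all probe sets with that order was not counted. The arrays of BMP4 at 10 ng/ml, with the standard label, read 6.49 and 6.45. Compound 942 minus methanol was -0.20 for Runx3 (95% interval -0.68 to 0.28), a fitted value that includes the labelling term. In the run of compound 942, without that term, its difference from the methanol array was -0.26. The Affyexpress array of BMP4 300 ng/ml read 6.97 for Runx3 and the standard array 7.03. No other dose holds both labelling methods, and these arrays also belong to different runs, so label and run cannot be told apart. Compound 178 gave 6.67, 6.79 and 6.75 and compound 181 gave 6.70, 6.78 and 6.64 at 6.25, 12.5 and 25 µM. Both overlapped the control arrays, with differences from methanol of -0.04 (-0.28 to 0.20) for 178 and -0.07 (-0.31 to 0.17) for 181.

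Cbfb gave 9.16, 9.20 and 9.14 with compound 942, 9.21, 9.22 and 9.30 with compound 178, and 9.18, 9.16 and 8.98 with compound 181 at 6.25, 12.5 and 25 µM. The array of 181 at 25 µM was the lowest of the 20 for Cbfb. Its difference from methanol was -0.31 (95% interval -0.56 to -0.07, adjusted p = 0.656 in limma). Over the 3 doses 181 minus methanol was -0.19 for Cbfb (-0.36 to -0.02, unadjusted p = 0.0323, adjusted p = 0.99973 in limma). For 942 minus methanol it was -0.27 (-0.61 to 0.08) and for 178 minus methanol -0.05 (-0.23 to 0.12). The value of 942 includes the labelling term. Without it, in the run of compound 942, the difference from the methanol array was -0.11.

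**Figure D3:**
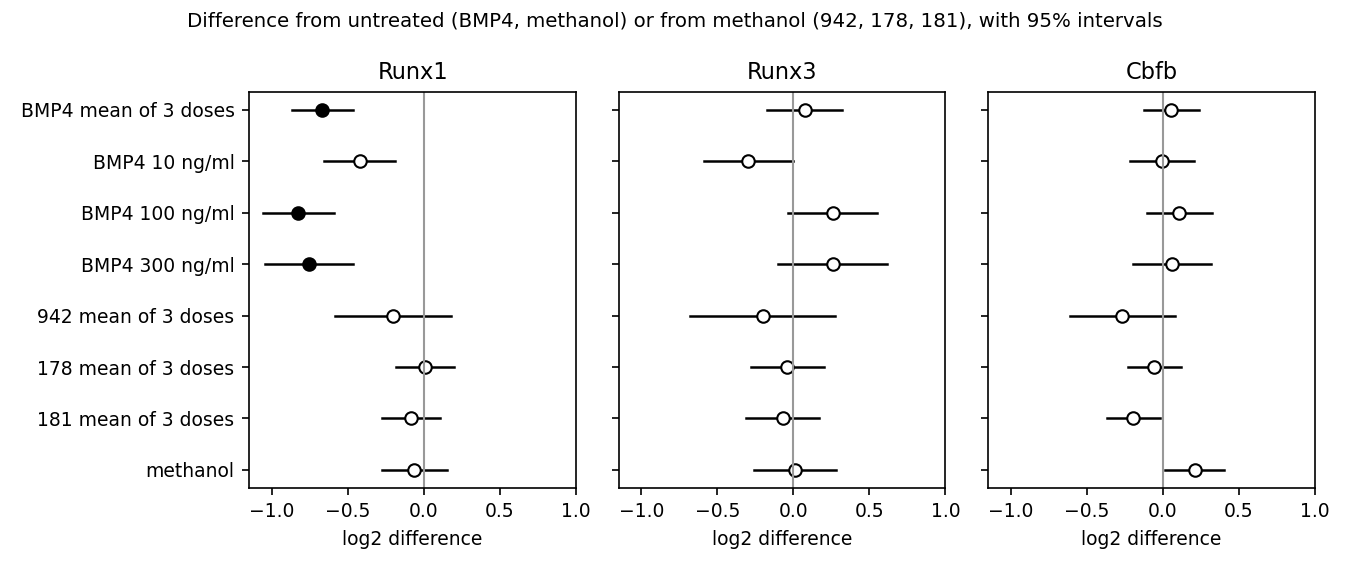
Fitted log2 differences of Runx1, Runx3 and Cbfb with 95% intervals, for BMP4 and methanol minus untreated and for the mean of each compound minus methanol. Filled points passed the limma test at an adjusted p under 0.05, which were the BMP4 mean, 100 ng/ml and 300 ng/ml of Runx1; the widest intervals are those of compound 942.

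The compounds were also set against each other over their 3 matched doses, in 3 pairs. The difference of 942 minus 178 was -0.21 for Runx1 (95% interval -0.59 to 0.17), -0.16 for Runx3 (-0.64 to 0.32) and -0.21 for Cbfb (-0.56 to 0.13). For 942 minus 181 the differences were -0.12 (-0.50 to 0.26), -0.13 (-0.61 to 0.35) and -0.07 (-0.42 to 0.27) for the same genes. For 181 minus 178 they were -0.09 (-0.28 to 0.10), -0.03 (-0.27 to 0.21) and -0.14 (-0.31 to 0.03). No probe set passed in any of these pairs in limma (unadjusted p under 0.05 in 899, 816 and 2216 probe sets), which does not show that the compounds act alike. Both pairs that hold 942 also compare the labelling methods and the runs of title numbers.

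The difference between a compound's effect and BMP4's was tested directly. For Runx1 it was 0.46 for 942 (95% interval 0.08 to 0.85, adjusted p = 0.694 in limma), 0.67 for 178 (0.40 to 0.95, adjusted p = 0.0597) and 0.58 for 181 (0.31 to 0.86, adjusted p = 0.117). None passed over all probe sets, of which 0.0193%, 0.331% and 0.186% were called higher for 942, 178 and 181. For 178 the test was passed under 7 of 30 alternatives and for 181 under 3 of 30. With methanol as the control of BMP4 the adjusted p values in limma were 0.00307 for 178 and 0.00747 for 181. In that setting, and with both controls together, the same control stands on both sides and cancels. What is then tested is the compound mean minus the BMP4 mean, not a difference between effects. For Runx3 these differences lay between -0.28 and -0.11, and for Cbfb between -0.32 and -0.11, and none passed.

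In order of level, the 4 lowest Runx1 means among the 14 treatments and doses were those of BMP4 100 ng/ml (9.60), BMP4 300 ng/ml (9.69), BMP4 10 ng/ml (10.00) and compound 942 at 25 µM (10.11). The first 2 did not differ by the test, and the array of 942 at 25 µM was level with the higher array at 10 ng/ml. The other 10 means lay between 10.19 and 10.44, a range that holds both controls. For Runx3 the highest means were those at 100 ng/ml (7.02) and 300 ng/ml, which did not differ beyond their spread, and the lowest were 6.47 for both BMP4 10 ng/ml and compound 942 at 25 µM. Between them the untreated mean of 6.77 and the methanol mean of 6.78 did not differ beyond their spread. For Cbfb the methanol mean was the highest at 9.30, level with 178 at 25 µM, the BMP4 10 ng/ml and untreated means were both 9.09, and 181 at 25 µM was the lowest at 8.98.

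Across the 14 treatment and dose means, Runx1 and Runx3 had a Pearson r of -0.40, Runx1 and Cbfb 0.05, and Runx3 and Cbfb 0.37. These are descriptions over means that share arrays, labelling and runs. Among the 2056 genes whose means spanned at least 1, the closest to Runx1 were Plxna1 (r = 0.983), a semaphorin co-receptor gene, Cacna1s (0.978), the muscle calcium channel subunit, and Adamts14 (0.977), a procollagen protease. Opposite to it were Pi15 (-0.969), Cbr2 (-0.967) and Naaa (-0.967). Closest to Runx3 were Thbs1 (0.928) and Tnc (0.899), both matricellular protein genes, and Ahr (0.922), the aryl hydrocarbon receptor, while Coa7 (-0.859), Ptgir (-0.838) and H2ac21 (-0.826) ran opposite. Cbfb, with its narrow span, reached only 0.776 (Gm13271), 0.767 (Mir344f) and 0.739 (Zfp811), and -0.819 (Gm3521), -0.769 (Olfr784) and -0.764 (Cd55).

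Genes known as RUNX targets in osteoblasts were the group around the family with the most calls upward under BMP4. Of 16 listed, 13 were measured, and 6 were higher and none lower in BMP4 mean minus untreated (2.35% of all genes were higher and 2.74% lower). The median of the 13 was 1.12, against -0.01 over all genes. Sp7, which encodes osterix, an osteoblast factor downstream of RUNX2, had 4.06 and 4.37 in untreated cells, 5.76 and 4.65 at 10 ng/ml, 9.87 and 8.03 at 100 ng/ml, and 10.43 and 10.40 at 300 ng/ml. Alpl, alkaline phosphatase, had 4.72 and 4.81 in untreated cells, 5.24 and 5.02 at 10 ng/ml, 9.53 and 7.19 at 100 ng/ml, and 10.33 on both arrays at 300 ng/ml. Both were far above the untreated arrays at the 2 higher doses.

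The mean differences of Sp7 and Alpl were 3.97 and 3.18 (adjusted p = 0.00312 and 0.0123 in limma). Bglap had 5.30 and 4.95 in untreated cells, 5.13 and 4.95 at 10 ng/ml, 6.81 and 6.46 at 100 ng/ml, and 7.46 and 8.08 at 300 ng/ml, a mean difference of 1.46 (adjusted p = 0.00296). Its near-identical copies Bglap2 and Bglap3 had no probe set of their own, so their part in the signal was not tested. Col1a2, a chain of type I collagen, was higher by 1.22 (adjusted p = 0.0042). The other called genes were Tnfrsf11b, osteoprotegerin, at 1.17 and Col1a1 at 1.12. Phex, of the same list, differed by 1.51 but did not pass (adjusted p = 0.0532 in limma). Its difference was 1.89 at 10 ng/ml and 1.01 at 300 ng/ml, neither of which passed. Mmp13, whose promoter core is printed above, differed by 0.07 (adjusted p = 0.924), and Ibsp, bone sialoprotein, by -0.30 (adjusted p = 0.504).

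At 10 ng/ml none of these 13 genes was called (0.0992% of all genes were higher). At 100 ng/ml 4 were higher (2.27% of all genes) and 1 was lower (2.62%), namely Dmp1, a mineralization gene, at -0.68, and at 300 ng/ml 6 were higher (1.95%). With untreated replicate 1 left out, or with 1 common mean per treatment, the count of 6 in the mean was 1. It was 3 when untreated replicate 2 or BMP4 300 ng/ml replicate 2 was left out. None of the genes in any list was called for a compound mean or for methanol in limma.

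Of the 10 muscle markers measured, 5 fell and none rose in BMP4 mean minus untreated (2.74% of all genes were lower and 2.35% higher). Acta1 differed by -3.23, Myog by -2.88, Actc1, cardiac actin, by -2.68 and Cdh15, M-cadherin, by -2.12, with adjusted p values from 4.26e-05 to 0.00887 in limma. The fifth was Ckm, muscle creatine kinase, at -1.95. Averaged over the 10 markers, the signal lay between 8.01 and 10.39 on the BMP4 arrays and between 10.42 and 10.47 on the untreated arrays. The part of the muscle change in the Runx1 fall was not tested. Leaving out untreated replicate 1 gave 3 and leaving out BMP4 100 ng/ml replicate 2 gave 8, while 1 common mean per treatment gave 2.

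Genes of RUNX cofactors mostly did not pass the test. Among corepressors and inhibitors 21 of 24 listed symbols were measured. Aes, counted as not measured, is an earlier symbol of Tle5, which was measured. Of the 21, 2 were lower and none higher with BMP4, where 2.74% of all genes were lower. The larger was Cbfa2t3, a corepressor of the ETO family whose founding member is fused to RUNX1 in leukaemia, which had 7.19 and 6.89 in untreated cells, 6.05 and 6.42 at 10 ng/ml, 6.03 and 5.44 at 100 ng/ml, and 5.71 and 5.57 at 300 ng/ml. All 6 BMP4 arrays of Cbfa2t3 lay below both untreated ones, as in 7.24% of all probe sets, and the mean difference was -1.19 (SE 0.20, adjusted p = 0.0157 in limma). Its relatives Runx1t1 and Cbfa2t2 differed by -0.44 and -0.05 (adjusted p = 0.155 and 0.938).

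Hdac6, a histone deacetylase family member, was the other, at -0.47 (adjusted p = 0.0383), and its call was lost in 12 of 30 alternatives. The count of 2 was 0 without either untreated replicate. It was 1 without methanol replicate 1, 2 or 3, without either replicate of 10 or 100 ng/ml or without BMP4 300 ng/ml replicate 2, and reached 5 with both controls together. The Groucho-related genes Tle1, Tle2, Tle3 and Tle4, whose products bind the C-terminal motif of RUNX proteins, differed by -0.43, 0.51, -0.08 and -0.15. The related gene Tle5 differed by -0.12, and none of these genes passed. The median of the 21 was -0.08.

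Among coactivators and partners 15 of 16 were measured, and 1 was higher and none lower, where 2.35% of all genes were higher. This was Cebpd, a C/EBP factor, at 0.74 (adjusted p = 0.0378 in limma), a call lost in 11 of 30 alternatives. The SMADs that join RUNX proteins, Smad1, Smad5 and Smad4, differed by 0.04, 0.02 and 0.04, and the acetyltransferase genes Ep300 and Crebbp by -0.20 and -0.18, with no call. The call of Cebpd was lost when either untreated replicate, any methanol replicate, replicate 1 of 10 or 100 ng/ml or replicate 2 of 300 ng/ml was left out.

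Of the ubiquitin ligases that act on RUNX proteins 5 of 6 were measured, and 1 was higher and none lower, with 2.35% of all genes higher and 2.74% lower. Smurf2 had 8.72 and 8.89 in untreated cells, 8.96 and 8.83 at 10 ng/ml, 9.52 and 9.36 at 100 ng/ml, and 9.80 and 9.85 at 300 ng/ml. Its mean difference was 0.59 (adjusted p = 0.0206 in limma), a call that needed untreated replicates 1 and 2, methanol replicate 2 and BMP4 300 ng/ml replicate 2, and that 1 common mean per treatment also removed. Smurf1, its closest relative, had 8.73 and 8.75 in untreated cells, 8.62 and 8.44 at 10 ng/ml, 8.11 and 8.30 at 100 ng/ml, and 8.01 and 8.17 at 300 ng/ml. Smurf1 was below both untreated arrays on all 6 BMP4 arrays, with a mean difference of -0.44 (adjusted p = 0.0552) and a call at 100 ng/ml alone (-0.53, adjusted p = 0.0497).

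Of the homeobox genes known to act upstream of Runx2, 6 of 7 were measured and none was called in the mean. Over all genes 2.35% were higher and 2.74% lower there, so a list of 6 would hold few or no calls at that rate. Dlx5, which activates Runx2, had 3.82 and 3.47 in untreated cells, 3.87 and 3.67 at 10 ng/ml, 5.72 and 4.08 at 100 ng/ml, and 6.37 and 6.18 at 300 ng/ml. Dlx5 passed at 300 ng/ml (2.53, adjusted p = 0.0438 in limma), where 1.95% of all genes were called higher. In the mean Dlx5 differed by 1.30 (adjusted p = 0.122 in limma).

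**Figure D4:**
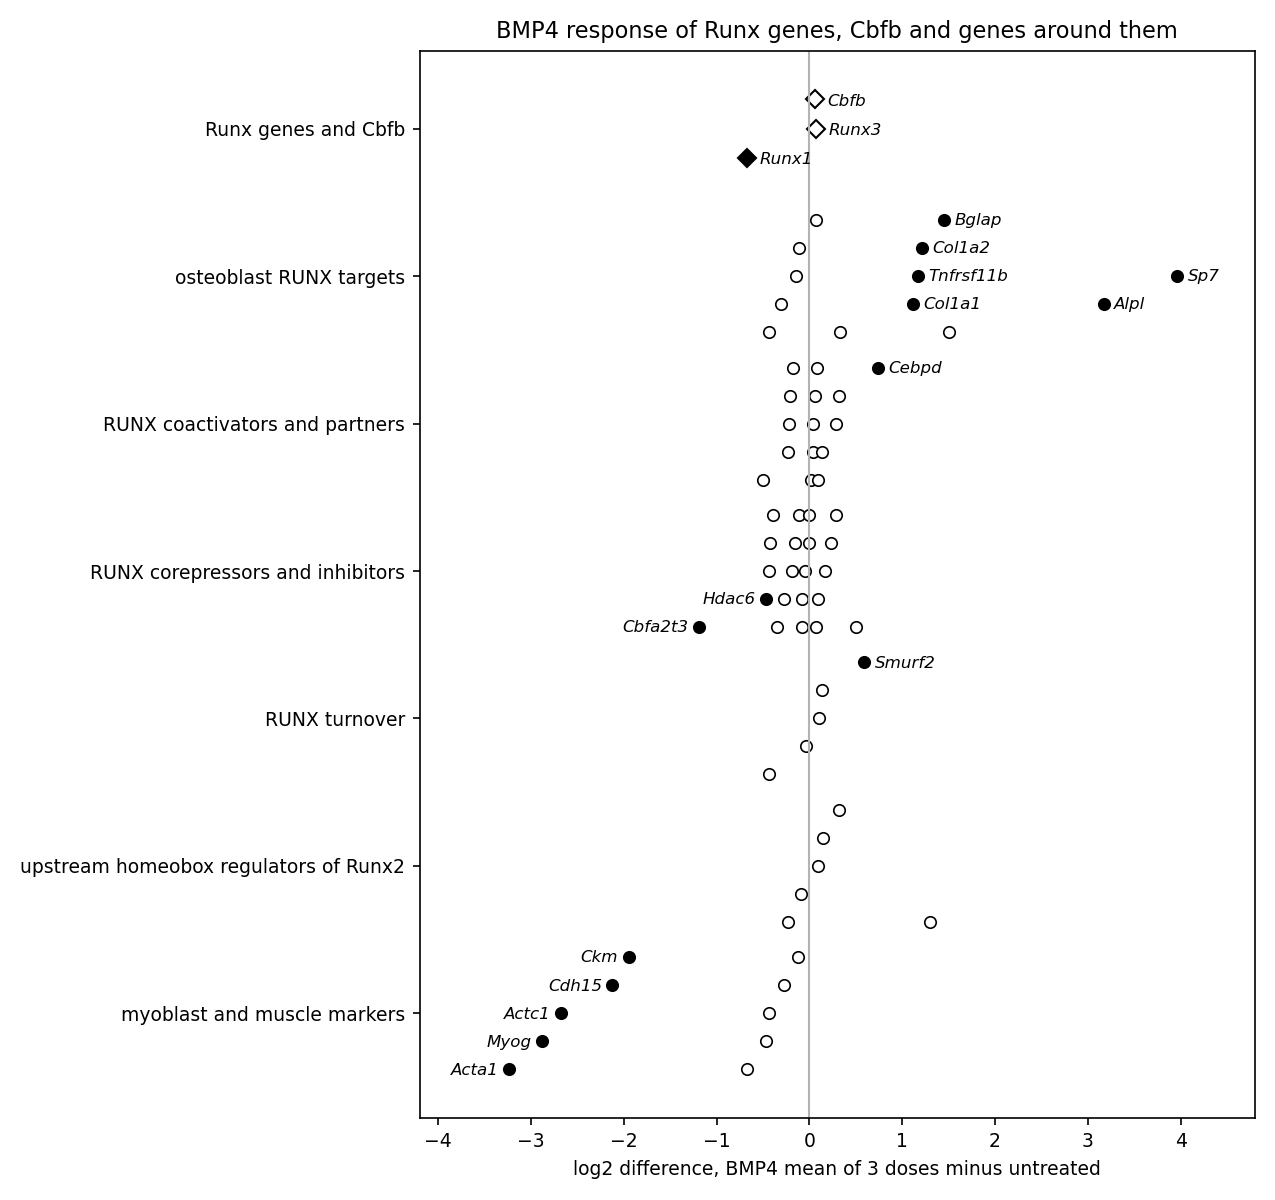
Log2 difference of BMP4 (mean of 3 doses) minus untreated for the 3 measured genes of the family (diamonds) and for every measured gene of 6 lists (circles, spread vertically so that they do not overlap). Filled symbols passed the limma test at an adjusted p under 0.05 and are named; 6 osteoblast targets lie to the right of 0, and Runx1, 2 corepressor genes and 5 muscle markers lie to the left.

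Markers of other lineages, some of which rely on RUNX factors, did not pass the test. None of the 10 haematopoietic, 5 endothelial, 5 epithelial or 5 chondrocyte markers measured was called in BMP4 mean minus untreated. In that comparison 2.35% of all genes were higher and 2.74% lower, so few or no calls would arise in lists this short at the general rate. The list medians were 0.06, -0.07, -0.26 and 0.11. Averaged over the 10 haematopoietic markers, the signal lay between 4.50 and 4.81 on the BMP4 arrays and between 4.58 and 4.69 on the untreated arrays.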

How the data were processed

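The authors' deposited table holds log2 signals by probe set and array, made with RMA in Partek 6.5 per the submitters' processing notes and used here as deposited. No genome build is named for them, and the sources used here do not say whether a labelling correction was applied. The doses 100 ng/ml and 12.5 µM come from the sample labels and titles, since the treatment protocol lists neither. Probe sets were named from the platform annotation: 23521 carried 1 symbol, 1814 several and 16010 none. In R 4.3.3 with limma 3.58.1, 1 mean per treatment and dose (14 means) and a labelling term were fitted to all 20 arrays (5 residual degrees of freedom, median prior 3.66), with a variance trend and Benjamini-Hochberg adjustment over all 41345 probe sets, and called at 0.05. Intervals are 95% and unadjusted. Compound doses, with 1 array each, take their spread from the replicated groups. Depth does not apply to arrays, and their number limits the precision.

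The members and lists were chosen with earlier results of these data known, so the counts over lists are descriptions. Of 104 list entries 95 were measured, each gene by its brightest single-symbol probe set. Named were all members and, per list, up to 4 called genes per direction with the largest change, plus the genes most like each member. The following were named after their values were seen or for their role: Tnfrsf11b, Col1a1, Phex, Mmp13, Ibsp, Dmp1, Ckm, Runx1t1, Cbfa2t2, Tle1 to Tle5, Smad1, Smad4, Smad5, Ep300, Crebbp, Smurf1, Dlx5, Ptprc, Cd68, Itga2b and Spi1. Alternatives varied the labelling and run terms, controls, features, filter, variance trend, scaling, dose means and single arrays.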

Additional observations from a re-analysis of the deposited data

How the results depend on the processing

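For Runx1, Runx3 and Cbfb 1110 values were recomputed under the alternatives: 1092 kept their side of the threshold, 5 lost the call and 13 gained one, no called value changed sign, and 22 uncalled values did. The lost and gained calls stand beside the results. The probe sets called for BMP4 mean minus untreated (1398) numbered 2370 with a run term and 2587 with both controls together, and 225 to 1475 with 1 array left out. At 10 ng/ml (61) they numbered 148 without the labelling term, 242 with a run term, 208 with both controls together, 153 with methanol as control, 244 with 1 probe set per gene, 140 above the median signal, 35 without a variance trend and 32 with centred arrays, and 6 to 66 with 1 array left out. At 100 ng/ml (1326) they numbered 2376, 2108 and 2030 with a run term, both controls together and 1 probe set per gene, and 363 to 1401 with 1 array left out. At 300 ng/ml (1209) they numbered 2400 without the labelling term and 1935 with a run term, and 378 to 1222 with 1 array left out. For the slope (532) they numbered 1272 without the labelling term, 1298 with a run term, 1197 with 1 probe set per gene and 335 without a trend, and 101 to 749 with 1 array left out. Counts fell by over 1.5 times, in 1 or more of these comparisons, without untreated replicate 1 or 2, methanol replicate 1, 2 or 3, BMP4 10 ng/ml replicate 1 or 2, BMP4 100 ng/ml replicate 1 or BMP4 300 ng/ml replicate 2. For compound 178 (0) the count was 0 to 1 with 1 array left out, for methanol likewise 0 to 1, and for 181 (0) it was 1 with 1 probe set per gene. Fewer features are tested with 1 probe set per gene and fewer arrays with 1 left out; otherwise the cause was not tested. Without BMP4 300 ng/ml replicate 2 the BMP4 mean covers 10 and 100 ng/ml only, and without either replicate of that dose compound 942 has no value of its own. Arrays could not be paired by replicate number, because the labels carry none, and replicates were numbered in accession order. The run of title numbers was used as a block instead, as the run term above. The small number of arrays limits every comparison.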
